A study of Drosophila melanogaster with 6 samples.

Results

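Genes of juvenile hormone synthesis, turnover, transport and response were followed in Drosophila melanogaster, in RNA of entire 1st instar larvae that were mutant or control for Kdm4A. The 10 genes considered were jhamt, Jheh1, Jheh2, Jheh3, Jhe, Met, gce, Kr-h1, JhI-26 and Jhbp2, the last also known as CG2016. They were chosen for their place in the pathway, with earlier results of these data known. A gene was measured where a probe set of the array named it and no other gene. This gave values for 8 of the 10 genes, among 11983 genes on the arrays. Jheh1 and Jheh3 were not analysed here.

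The mutant larvae were heterozygous for dKDM4A KG04636, an insertion allele of this histone demethylase gene, and for the deletion allele ∆dKDM4A. Control larvae carried the alleles dKDM4A precise KG06436 and dKDM4A precise NP0618, in which the names mark precise excisions, and the titles call these larvae wt. Each genotype had 3 Affymetrix arrays, titled as biological replicates 1 to 3, and each array held total RNA of 200 pooled larvae raised at 25 °C. The sex of the larvae and their exact age within the instar are not given in the sources used here. Values below are log2 expression values made by RMA, and they are comparable between arrays for 1 probe set but not between probe sets.

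Juvenile hormone is a sesquiterpenoid made in the corpus allatum, which in flies is part of the ring gland. In many insects it keeps the next stage larval at larval molts, and its decline permits metamorphosis. Its carbon skeleton comes from the mevalonate pathway through farnesyl diphosphate, and the methyltransferase encoded by jhamt acts at the end of synthesis. Circulating hormone is bound by carrier proteins and is inactivated by epoxide hydrolases and an esterase. In target cells it binds the bHLH-PAS receptors Met and Gce, which switch on Kr-h1, a zinc finger transcription factor that carries much of the response.

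The arrays had median probe set values from 5.30 to 5.38. Kdm4A lay at 3.44, 3.41 and 3.29 in the mutant arrays and at 5.18, 5.26 and 5.46 in the control arrays, so that the labels and the targeted gene go together. Besides genotype, the replicate number in the titles marked a difference between arrays. Of 11983 genes, 989 (8.25%) differed between arrays numbered 3 and arrays numbered 1 at an adjusted p under 0.05, with 588 higher in number 3 (4.91%) and 401 lower (3.35%). The 3′ to 5′ gap of the actin control probe sets, which reflects the integrity of the RNA, was 2.34 and 2.39 in the arrays numbered 1 and 1.53 to 1.84 in the other 4. What the numbers stand for beyond a replicate is not given in the labels.

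No juvenile hormone gene was called between mutant and control when the arrays were compared as 2 groups of 3. By limma 0 of the 8 genes passed an adjusted p under 0.05, against 19 of 11983 genes (0.159%), and 0 of the 8 had an unadjusted p under 0.05, against 632 of 11983 genes (5.27%). Their log2 differences, mutant minus control, had a median of 0.06, with 6 above 0 and 2 below, while the median over all genes was -0.01. In each of the 8 genes the mutant and control values overlapped. Across the arrays, groups that did not overlap were seen for 10.3% of genes.

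Hormone synthesis was represented by jhamt, on 2L. Its log2 values were 5.86, 6.08 and 6.34 in mutant arrays 1, 2 and 3, and 5.41, 6.36 and 6.32 in control arrays 1, 2 and 3. Control array 1 was the lowest of the 6, and apart from it the values of both genotypes lay within 0.51 of each other. The difference was 0.06 with an SE of 0.28 (limma adjusted p = 0.998, n = 3 per group), and its 95% interval ran from -0.60 to 0.72. In whole larvae, the number of corpus allatum cells and the jhamt RNA per cell cannot be told apart.

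The precursor genes gave no call between the genotypes either. Of 9 genes fixed for isoprenoid precursor supply, 7 were measured and 0 were called, with a median log2 difference of -0.05. The mevalonate pathway genes Hmgs, Pmvk, Mvd and Idi had differences of -0.17 (SE 0.10), -0.32 (SE 0.21), -0.49 (SE 0.30) and -0.05 (SE 0.09). Mvd encodes mevalonate diphosphate decarboxylase. Fpps, the farnesyl diphosphate synthase gene, had a difference of 0.13 (SE 0.12), and Aldh-III, an aldehyde dehydrogenase gene, had one of -0.05 (SE 0.12). Cyp6g2, a cytochrome P450 gene of the corpus allatum, had a difference of 0.25 (SE 0.09, limma adjusted p = 0.821, n = 3 per group). Its values were 5.73, 5.66 and 5.70 in the mutant and 5.33, 5.51 and 5.52 in the control. Of the 7 genes, Cyp6g2 was the 1 with all mutant values above all control values and Hmgs the 1 with all of them below, and the other 5 overlapped, where 10.3% of all genes did not overlap in either direction. In all 3 same-numbered pairs 2 of the 7 were higher in the mutant, Fpps and Cyp6g2, and 3 were lower, Hmgs, Pmvk and Mvd. Over all genes 14.5% were higher and 19.2% lower in all 3 pairs.

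Genes for control of the corpus allatum included the neuropeptide gene AstC, its receptor gene AstC-R1, and dpp, tkv and Mad of the BMP pathway. Of 11 such genes fixed, 8 were measured and 0 were called between the genotypes, with differences from -0.12 (tkv) to 0.38 (Nmdar1, a glutamate receptor gene). Their median was -0.05.

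Turnover was represented by an epoxide hydrolase gene and an esterase gene, both on 2R. Jheh2 had log2 values of 9.79, 10.05 and 10.26 in mutant arrays 1, 2 and 3, and 9.43, 9.83 and 9.79 in the control arrays. The mutant array was higher in each pair, by 0.36, 0.22 and 0.47, although mutant 1 lay below control 2. Across all genes 14.5% were higher in all 3 pairs. Of the 8 juvenile hormone genes 3 were, namely Jheh2, Jhe and JhI-26. The difference was 0.35 with an SE of 0.16 (limma adjusted p = 0.978, n = 3 per group), a fold of 1.27. With the replicate number as a block the SE was 0.09 and the adjusted p was 0.226. In RefSeq Jheh2 lies between Jheh1 and Jheh3, which were not analysed here.

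Jhe, the juvenile hormone esterase gene, had values of 4.02, 4.19 and 4.07 in the mutant arrays and 3.95, 4.06 and 3.997 in the control arrays. The 6 values lay within 0.24 of each other and in percentiles 18.3 to 22.9 of all genes of their arrays. The difference was 0.09 with an SE of 0.09 (limma adjusted p = 0.998, n = 3 per group). Its adjoining relative Jhedup had values of 3.54, 3.56 and 3.46 in the mutant and 3.51, 3.52 and 3.85 in the control. The difference was -0.11 (SE 0.12). The 25% quantile of all probe sets, a wider set than the genes, was 3.70 to 3.80 in the arrays. At these levels a change in esterase RNA may not be visible.

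**Figure D1:**
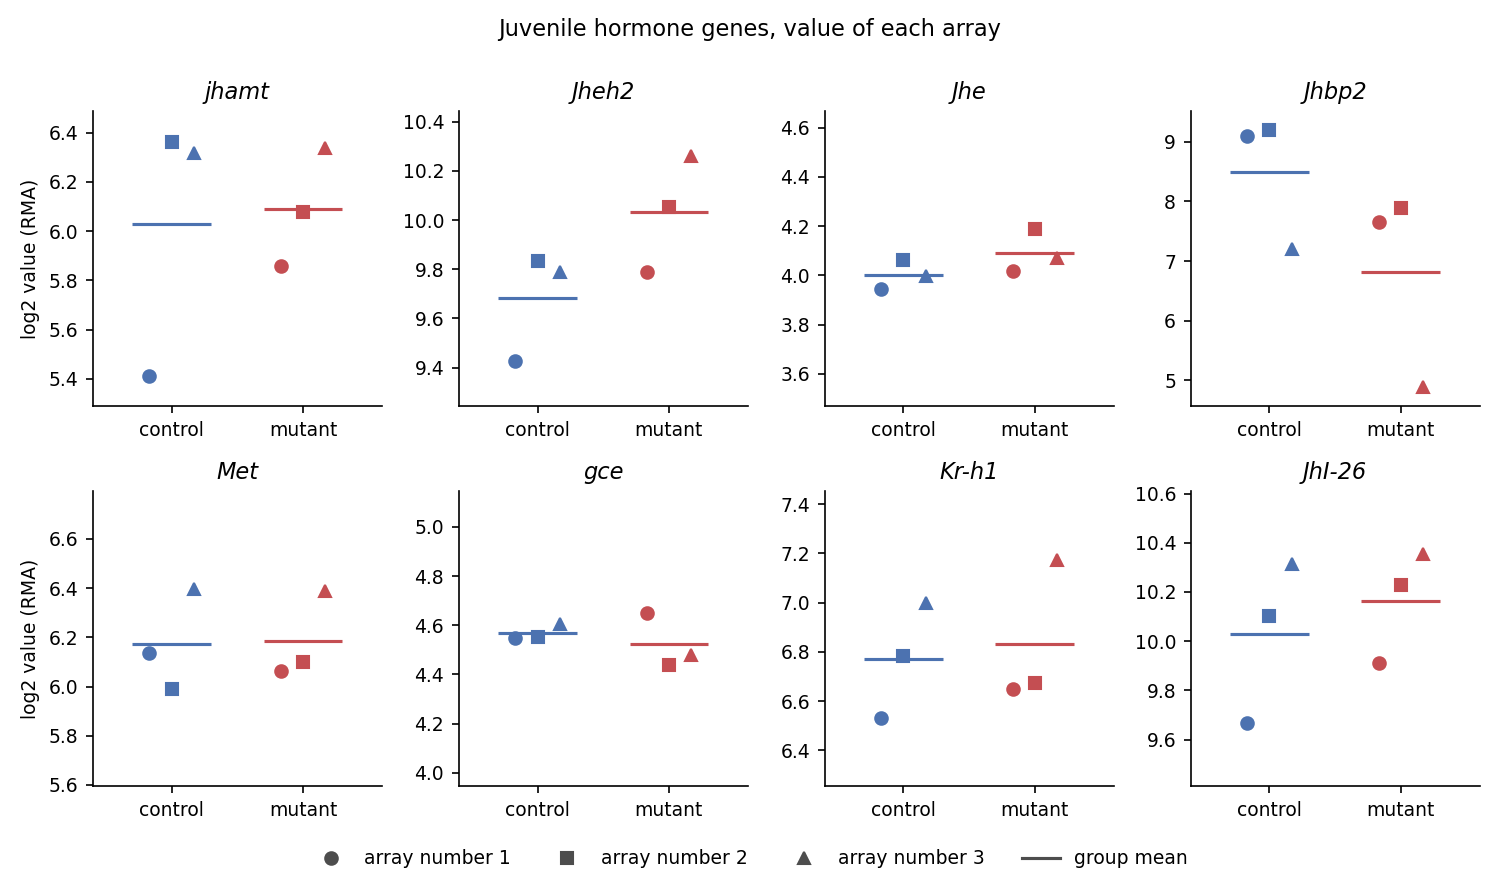
Log2 RMA values of the 8 measured juvenile hormone genes in each array, with control in blue, mutant in red, marker shape for the array number and a bar for the mean of 3 arrays; axes differ between panels. In Jhbp2 the array numbered 3 is the lowest of both groups and each mutant array lies below its same-numbered control array, while jhamt, Kr-h1 and JhI-26 are lowest in the arrays numbered 1.

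Jhbp2, on 3R, had the largest difference of the 8 genes. It belongs to the family named for the juvenile hormone binding protein fold of insect haemolymph, which includes takeout. Its log2 values were 7.66, 7.90 and 4.89 in mutant arrays 1, 2 and 3, and 9.09, 9.19 and 7.20 in control arrays 1, 2 and 3. Control 3 lay below mutants 1 and 2, so the groups overlapped, but within every number the mutant array was lower, by 1.43 to 2.31. The mean difference was -1.68 (a fold of 3.20), and 25 of the 11983 genes had a difference this low or lower.

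Whether Jhbp2 was called depended on the treatment of the array numbers. Without a block the SE was 0.91 and the limma adjusted p was 0.998 (n = 3 per group), with a 95% interval from -3.87 to 0.52. With the replicate number as a block the SE was 0.21, the adjusted p was 0.0437 and the interval ran from -2.19 to -1.16. Jhbp2 was then the 1 called gene of the 8, against 98 of 11983 genes (0.818%). Without both arrays numbered 3, and with no block, the difference was -1.36 (adjusted p = 0.0355, n = 2 per group). Under the block the adjusted p was 0.0732 without pair 1, 0.0308 without pair 2 and 0.0510 without pair 3. Without mutant array 3 alone the difference was -0.71, and without control array 3 alone it was -2.32. Neither of these 2 fits had a block, and in each the groups differed in the numbers they held.

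**Figure D2:**
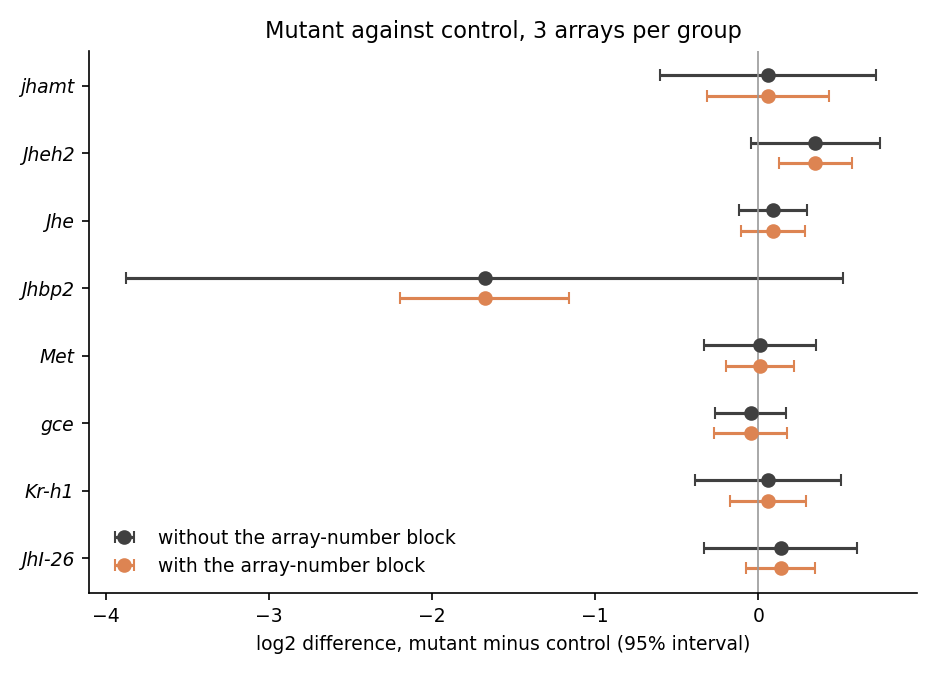
Log2 difference, mutant minus control, of each juvenile hormone gene with its 95% interval from limma, without (grey) and with (orange) the array number as a block, over 3 arrays per group. Only the Jhbp2 and Jheh2 intervals lie to 1 side of 0 with the block, and of these Jhbp2 alone passed after adjustment over all genes.

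Neither receptor gene was called between the genotypes. Met, on X, had values of 6.07, 6.10 and 6.39 in the mutant arrays and 6.13, 5.99 and 6.40 in the control arrays. Its difference was 0.01, with a 95% interval from -0.33 to 0.35 (limma adjusted p = 0.998, n = 3 per group). The paralog gce, also on X, had values of 4.65, 4.44 and 4.48 in the mutant and 4.55, 4.55 and 4.61 in the control. Its difference was -0.05, with a 95% interval from -0.26 to 0.17. A dimmer second probe set of gce had a difference of 0.10 (SE 0.12), so the sign depends on the probe set.

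Among the response genes, Kr-h1, on 2L, had values of 6.65, 6.67 and 7.17 in mutant arrays 1, 2 and 3, and 6.53, 6.78 and 7.00 in the control arrays. Both arrays numbered 3 were the highest of their genotype. The difference between the genotypes was 0.06, with a 95% interval from -0.39 to 0.51 (limma adjusted p = 0.998, n = 3 per group). JhI-26, on 2R and named for its induction by juvenile hormone, had values of 9.91, 10.23 and 10.35 in the mutant and 9.67, 10.10 and 10.32 in the control. The mutant array was higher in each pair, by 0.25, 0.13 and 0.04, and the mean difference was 0.14 with a 95% interval from -0.33 to 0.61.

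Partners of the receptors and other factors of the response were not called between the genotypes. Of 11 genes fixed, 8 were measured, and their differences ran from -0.18 (tai, the coactivator of the receptors) to 0.23 (JhI-21, an amino acid transporter gene), with a median of 0.11. JhI-21 had values of 8.72, 8.60 and 8.67 in the mutant and 8.37, 8.38 and 8.57 in the control, which did not overlap (SE 0.09, limma adjusted p = 0.936, n = 3 per group). Eip93F, an ecdysone-induced factor of metamorphosis, had a difference of 0.22 (SE 0.10) at values from 3.31 to 3.72, in the low range of the arrays.

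Jhbp2 is 1 of 12 measured genes of the Jhbp family, and the only family gene among the 10 considered. The 11 other measured Jhbp genes had a median log2 difference of 0.58, mutant minus control, with 7 above 0 and 4 below. By limma 0 of the 11 were called without the block, 4 had an unadjusted p under 0.05 (5.27% of all genes did), and 1 was called with the block (0.818% of all genes were). In 5 of the 11 all mutant values lay above all control values, and the same 5 were higher in all 3 pairs: Jhbp1, Jhbp3, Jhbp5, Jhbp14 and Jhbp15. Jhbp15 had the smallest difference of the 5, 0.18 (SE 0.09), at values from 3.45 to 3.78, in the low range of the arrays. Jhbp11 was the 1 gene of the 11 that was lower in all 3 pairs, at values from 3.66 to 3.90. Over all genes 10.3% had groups that did not overlap in either direction. In all 3 pairs 14.5% of all genes were higher and 19.2% lower, as given above. The Jhbp genes were fixed as a list by their names, and this family includes genes with no shown part in hormone transport.

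Jhbp5 had the most even difference. Its values were 5.84, 5.81 and 5.83 in the mutant arrays and 5.21, 5.16 and 5.09 in the control arrays. The difference was 0.67 (SE 0.08). The limma adjusted p was 0.0530 without the block and 0.0397 with it (n = 3 per group). With the block the call was lost without any 1 pair, at limma adjusted p = 0.0896 without pair 1, 0.0866 without pair 2 and 0.161 without pair 3. Without the block and with 1 array left out the adjusted p ran from 0.129 to 0.344, while it was 0.0417 over all probe sets and 0.0139 with array weights. The 3 values of each genotype lay within 0.12 of each other, and between numbers 3 and 1 the gene had a difference of -0.06 (SE 0.10).

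Jhbp14 had values of 6.49, 6.78 and 6.01 in the mutant and 5.64, 5.54 and 5.37 in the control, and the difference was 0.91 (SE 0.20). Its adjusted p was 0.332 without the block and 0.0596 with it (limma, n = 3 per group). Neither fit called the gene.

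In RefSeq Jhbp3, Jhbp2 and Jhbp1 follow each other on 3R with no other gene listed between them, and both outer genes had differences above 0. They were singled out after their values were seen. Jhbp3 had values of 6.50, 7.23 and 6.21 in mutant arrays 1, 2 and 3 and 5.06, 5.72 and 6.13 in the control arrays. Its pairs differed by 1.44, 1.52 and 0.08, with a mean of 1.01 (SE 0.35, limma adjusted p = 0.774, n = 3 per group). Jhbp1 had values of 9.69, 9.71 and 9.88 in the mutant and 9.51, 8.82 and 9.21 in the control, with a mean difference of 0.58 (SE 0.18, limma adjusted p = 0.680, n = 3 per group). Neither was called with the block (adjusted p = 0.290 and 0.229), and the contrast between the neighbours was not tested.

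The replicate numbers were compared next, in a contrast of 3 with 1 that was chosen with earlier results of these data known. With no genotype term in the fit, the 989 calls over all genes (8.25%) became 0. With genotype in the limma fit, 2 of the 8 juvenile hormone genes were called between arrays numbered 3 and arrays numbered 1, JhI-26 higher and Jhbp2 lower. At an unadjusted p under 0.05 there were 6 of the 8, against 3159 of 11983 genes (26.4%). In 5 of the 8, jhamt, Jheh2, Met, Kr-h1 and JhI-26, both arrays numbered 3 lay above both arrays numbered 1, as for 32.8% of all genes. The median difference, number 3 minus number 1, was 0.35 for the 8 genes and 0.03 over all genes. Each number had 1 array per genotype.

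JhI-26 was higher in number 3 than in number 1 by 0.65 within the control and by 0.44 within the mutant. The fitted difference was 0.54 with an SE of 0.10 (limma adjusted p = 0.0424, n = 2 per number). This call was lost after quantile normalization (adjusted p = 0.0525), and also without mutant array 1, mutant array 3, control array 1 or control array 3 (adjusted p from 0.0613 to 0.262). With no genotype term in the fit the adjusted p was 0.0733 for JhI-26 and 0.198 for Jhbp2.

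Kr-h1 was higher in number 3 by 0.47 within the control and by 0.52 within the mutant, with a fitted difference of 0.50 (SE 0.11, limma adjusted p = 0.0610, n = 2 per number). For jhamt the differences were 0.91 within the control and 0.48 within the mutant, and the fitted value was 0.69 (SE 0.18, adjusted p = 0.0825). Neither passed in this fit, and both passed when mutant array 2 or control array 2 was left out, which keeps the difference and changes the estimated spread. Without mutant array 1 jhamt passed too (0.98, adjusted p = 0.0308), and without control array 1 its difference was 0.40 (adjusted p = 0.329). Jheh2 had a fitted difference of 0.42 (SE 0.11, adjusted p = 0.0809) and Met one of 0.29 (SE 0.10, adjusted p = 0.145).

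Neither Jhe nor gce was called. Jhe had a difference of 0.05 between numbers 3 and 1 (SE 0.10), and gce one of -0.06 (SE 0.11). For gce the within-genotype differences had opposite signs, 0.06 in the control and -0.17 in the mutant. On its dimmer second probe set both arrays numbered 3 lay above both arrays numbered 1. The difference there was 0.25 (SE 0.11, limma adjusted p over all probe sets = 0.283), so the sign depends on the probe set.

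Jhbp2 moved the other way and further. It was lower in number 3 by 1.90 within the control and by 2.77 within the mutant, a fitted difference of -2.33 with an SE of 0.25 (limma adjusted p = 0.0187, n = 2 per number). Between the numbers 101 of 11983 genes had a difference this low or lower. Arrays 1 and 2 were alike, with means of 8.38 and 8.54 over the 2 genotypes, and the mean of arrays numbered 3 was 6.04. The call was lost without control array 1 (adjusted p = 0.0523). Jhbp4 also fell between numbers 1 and 3, by 1.47 (SE 0.24, limma adjusted p = 0.0345, n = 2 per number). Its values were 7.24, 6.24 and 6.21 in the mutant and 8.06, 6.13 and 6.15 in the control, so that it was high in number 1 alone.

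**Figure D3:**
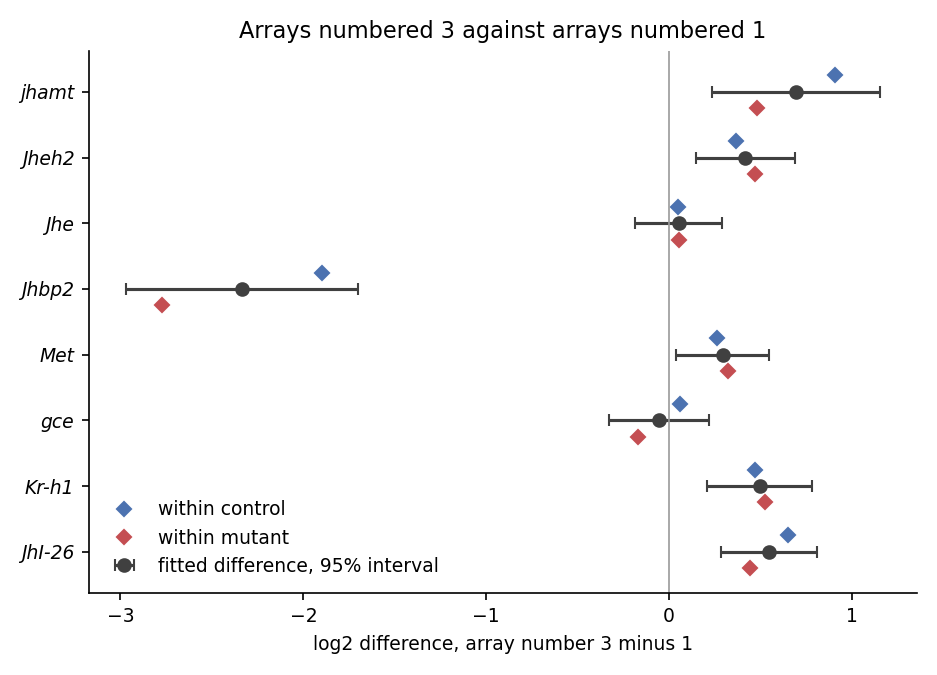
Log2 difference between arrays numbered 3 and 1 for each juvenile hormone gene, as the limma estimate with its 95% interval (black) and within control (blue) and mutant (red). JhI-26, Kr-h1, jhamt, Jheh2 and Met lie above 0 in both genotypes and Jhbp2 lies below 0 in both, at -1.90 and -2.77.

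Related genes also differed between the numbers. Of the genes fixed for control of the corpus allatum 2 of 8 measured were called higher in number 3 than in number 1. Of the receptor partners and response factors 2 of 8 were called higher, and of the precursor genes 1 of 7 was called lower. Over all genes 4.91% were called higher and 3.35% lower. In the corpus allatum list, Nmdar1 rose by 1.21 (SE 0.10, limma adjusted p = 0.0147, n = 2 per number). InR, the insulin receptor gene, rose by 0.61 (SE 0.12, limma adjusted p = 0.0465). All 8 measured genes of this list had differences above 0, as did 55.2% of all genes. The smallest of the 8 was that of AstC-R1, at 0.01 (SE 0.16). Among the response factors br, a zinc finger gene of the pupal stage, rose by 0.96 (SE 0.18, adjusted p = 0.0402), and ftz-f1, a nuclear receptor gene of the molting cycle, rose by 0.66 (SE 0.10, adjusted p = 0.0304). With the mean of their probe sets neither was called, br having a difference of 0.39 (adjusted p = 0.118) and ftz-f1 one of -0.21. The second probe set of ftz-f1 was at 8.86 in control array 1 and between 6.89 and 7.68 in the others. In the precursor list Mvd fell by 0.80 (SE 0.10, adjusted p = 0.0213) and Pmvk had a difference of -0.55 (SE 0.13, adjusted p = 0.0589), while Fpps had one of 0.25 (SE 0.10, adjusted p = 0.188). The calls of Nmdar1, InR, br, ftz-f1, Mvd and Jhbp4 were all lost with no genotype term, without control array 3 and without mutant array 3, and all but that of Nmdar1 without control array 1. The call of InR was also lost after quantile normalization (limma adjusted p = 0.0603) and without mutant array 1 (adjusted p = 0.0559).

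Genes of ecdysone synthesis and response were read beside these, since both hormones act at molts. Of 7 prothoracic gland and ecdysone synthesis genes 0 were called in either comparison, although spok had a difference of 0.59 between the genotypes (SE 0.16, limma adjusted p = 0.547, n = 3 per group). In the ecdysone response list 0 of 8 measured genes were called between the genotypes, and br and ftz-f1 were those called between the numbers. Hr4, a nuclear receptor gene, had values of 5.06, 4.82 and 4.40 in the mutant and 6.96, 6.02 and 4.79 in the control, and its difference was -1.16 (SE 0.52). It was named after its values were seen. Hr3 had a difference of -0.37 (SE 0.13).

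Of the 7 fat body genes and 7 midgut genes measured as markers of other tissues, 0 were called between the genotypes or between the numbers. Their summed levels, and those of the prothoracic gland and ecdysone synthesis genes, are given as values with no test. The summed level of 7 fat body genes was 14.90 to 14.92 (log2) in the arrays numbered 1 and 15.01 to 15.07 in the other arrays. It was carried mainly by the brightest probe sets, those of apolpp, FASN1 and Desat1. Between numbers 3 and 1 these had differences of -0.11, 0.29 and 0.23, so that apolpp went the other way. The summed level of 7 prothoracic gland and ecdysone synthesis genes was 8.31 and 8.59 in the arrays numbered 1, and 8.64 and 8.67 in those numbered 3. This sum includes shd, which was not fixed as a marker of the gland and had the highest value of the 7 in each array. In arrays 1 and 3 shd was at 6.68 and 7.33 in the control and at 6.95 and 7.21 in the mutant. The summed level of 7 midgut genes was 15.55 to 15.64 in the mutant and 15.64 to 15.84 in the control. It was carried mainly by Jon65Aiii, betaTry and alphaTry, with differences of -0.08, -0.21 and -0.31, mutant minus control. Of the 7 genes 5 were lower in the mutant and 2 were higher, Mal-A1 by 0.33 and Mal-A4 by 0.35. The part of the differences in summed level, and of the actin gap, in the values of the juvenile hormone genes was not tested.

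Genes with the most similar pattern over the 6 arrays are given as a description, since same-numbered arrays deviated together, though weakly for number 2. For jhamt they were CG17549, Vha100-2 and Mnt, with Pearson correlations of 0.99 to 1.00. Kr-h1 was most like Taf3, Ank2 and D19B, and JhI-26 was most like CG14777, CG4213 and Acsf2, all at 1.00 after rounding. With 6 arrays such values are common, and 109, 290 and 222 genes reached 0.95 with jhamt, Kr-h1 and JhI-26. Among the juvenile hormone genes themselves the correlations of the 28 pairs ran from -0.83, for Kr-h1 with Jhbp2, to 0.91, for jhamt with JhI-26, with 15 above 0 and 13 below.

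Jhbp2 was most like ect, CG9689 and CG14423, a choice made after its values were seen. The gene ect had values of 7.92, 7.91 and 5.71 in the mutant arrays and 8.91, 9.04 and 7.48 in the control arrays. It was picked for its correlation with Jhbp2 over these arrays (Pearson 0.999), and 95 genes reached 0.95 with Jhbp2. By this choice it shared with Jhbp2 the low values in both arrays numbered 3 and the lower mutant value in every pair.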

How the data were processed

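The authors deposited log2 values for each probe set. The submitters' processing notes name RMA and no version, and the log2 scale was read from the range of values. Because RMA evens out the arrays' distributions, a shift of most genes at once would be hidden. Apart from 183 controls, the 18952 probe sets were looked up in the platform table of 2016, where 13647 name 1 gene, 402 several, and 4720 are unlisted. The probe set with the highest mean was kept for each of 11983 genes, of which 11894 (99.3%) matched RefSeq (Release 6), used for names, arms and gene order.

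Limma 3.58.1 in R 4.3.3 (lmFit, eBayes, two-sided) was fitted to all genes, with Benjamini-Hochberg adjustment and calls at an adjusted p under 0.05. The fits were tested on simulated data. Mutant and control were compared as 2 groups and, alternatively, with the replicate number as a block, and numbers 3 and 1 with genotype in the fit. Deviations from group means correlated between same-numbered arrays at 0.684, 0.151 and 0.756, and on this basis same-numbered arrays were treated as pairs. The labels do not give this pairing, it was read from the same values, and it was weak for number 2. No arrays were identical. P-values of the comparison without a block measure the spread between pools of larvae. With the block, and between the numbers, they measure the spread of the mutant and control differences over the same-numbered pairs.

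The genes and lists were chosen with earlier results of these data known. Named genes were the members, and in each list those called and those with the 2 smallest p in a comparison, or some of these. Jhbp1, Jhbp3, Jhbp11, Jhbp15, Mal-A1, Mal-A4, Hr4 and genes at the ends of ranges were named after their values were seen. Mvd, Pmvk, Idi, phtm and Fkbp39 were matched by CG number. Plots were drawn with matplotlib 3.10.9. Sequences were not used here.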

Additional observations from a re-analysis of the deposited data

How the results depend on the processing

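The alternatives without both arrays numbered 3 and with pairs left out under the block were chosen after seeing the data. Between mutant and control, the count of 19 genes became 35 over all probe sets, 82 with array weights, 11 in the upper 60% of genes, 98 with the replicate block, 89 and 110 with the block and without pair 1 or pair 2, 0 without both arrays numbered 1 (441 at an unadjusted p under 0.05), and 5 to 18 with 1 array left out. The count of 0 juvenile hormone genes became 1, Jhbp2, with the replicate block, with the block and without pair 2, and without both arrays numbered 3. It stayed 0 with 1 array left out.

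Between numbers 3 and 1, the count of 989 genes became 0 with no genotype term (2770 at an unadjusted p under 0.05) and 60 to 1257 with 1 array left out, the low counts being 60 without control array 3, 126 without control array 1 and 139 without mutant array 3, and the count of 2 juvenile hormone genes became 0 with no genotype term, 1 after quantile normalization and 0 to 4 with 1 array left out.

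Signs turned for uncalled differences near 0 and for ftz-f1. Between mutant and control, jhamt was -0.21 with array weights, -0.13 without both arrays numbered 1 or with the replicate block and without pair 1, and -0.25 to 0.23 with 1 array left out. Met was -0.039 with the replicate block and without pair 2, and -0.092 to 0.12 with 1 array left out, where Kr-h1 ran from -0.11 to 0.17 and JhI-26 from -0.043 to 0.28. With the mean of its probe sets gce was 0.028 between the genotypes and 0.10 between the numbers, where it ran from -0.17 to 0.053 with 1 array left out, and ftz-f1 was -0.21 between the numbers. Between the genotypes, 134 values of the 8 genes under the alternatives kept their sign and side of the threshold, 13 turned and 3 passed. The cause was not tested beyond the constructions named. Dim values near the lower end of the log2 scale limit what the arrays show for Jhe and gce.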
